A study of Mus musculus with 4 samples.

Results

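The T-box genes examined here were Tbx1, Tbx2, Tbx3, Tbx4, Tbx15, Tbx18 and Tbx20, and they were described by the open chromatin listed around them in palate cells of the mouse embryo. The members were fixed by name. Regions were taken for them where the nearest protein-coding gene within 100 kb was one of the 7, which gave 19 of the 39843 regions found in the series. A region is a stretch of genome in which peaks of 1 or more libraries shared at least 1 bp. T-box factors bind DNA through a shared domain, the T-box, and act as activators or repressors of transcription. Tbx1 is known for its part in the pharyngeal arches and the palate, and its loss causes cleft palate. Tbx2 and Tbx3 are mainly repressors, expressed in many embryonic tissues that respond to BMP signals, the palatal shelves among them.

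The assay was ATAC-seq, which reads out open DNA as the places where a transposase can insert adapters. Palatal mesenchymal cells of E14.5 embryos were sorted for green fluorescence. The control genotype was Shox2Cre/+;Nkx2.5F/F;R26RmTmG, with 2 libraries. The mutant genotype was Shox2Cre/-;Nkx2.5F/F;R26RmTmG, likewise with 2 libraries. The number of pooled cells given by the labels was 50000 for each group, and nothing there says whether separate pools were used for each library, so the spread between them may be technical. Cre was expressed from the Shox2 locus, so only cells with a history of Shox2 expression were marked through the R26RmTmG reporter. The controls had 1 intact Shox2 allele and the mutants had none. Both genotypes carried the floxed Nkx2.5 allele on both chromosomes, which Cre can cut, so the controls were not wild type either. With sorted cells in bulk, fewer cells with an open site and less opening per cell cannot be told apart.

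The lists held 22966 to 31832 peaks, and control 2 was the shortest. Each list held 23.8% to 27.8% of the peaks that had been numbered in its library, so numbered peaks had been removed, by a step that none of the sources used here describes. The read depth of the libraries is unknown. At Shox2 3 regions were assigned and 0 had a peak in all 4 libraries, and these lists cannot check the deletion. All 11 genes of a list of mesenchyme markers had a region at the promoter, 7 of them in all 4 libraries. Over all protein-coding genes these shares were 57.3% and 49.6%. A promoter region in any library was found for 5 of 10 epithelial, 2 of 7 endothelial and 2 of 7 blood markers. For skeletal muscle it was 1 of 7, and for neuron and glia markers 5 of 7. In all 4 libraries the counts of these lists, in the same order, were 3, 1, 2, 0 and 5. Peaks at the skeletal muscle markers numbered 3 and 1 (controls) against 4 and 9 (mutants). The part of other cell types in the values that follow was not tested.

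The promoters of 4 members show how the listed peaks met their sequence. RefSeq gave starts for Tbx1, Tbx4, Tbx18 and Tbx20 (GRCm38.p6, the assembly of mm10). The windows below run from 250 bases before to 50 bases after a start, 5′ to 3′ on the strand of the gene. Tbx18 (chr9:87731211-87731510, minus strand) and Tbx20 (chr9:24774254-24774553, minus strand) are shown because a region covered them, and the other windows because none did. These are the inner of 2 listed starts of Tbx1 (chr16:18588850-18589149, minus strand) and the start of Tbx4 (chr11:85896515-85896814, plus strand). Capitals mark matches on either strand to any of 4 motifs, which were AGGTGT (the core bound by T-box factors), TAATTA (a homeodomain core, identical on both strands), TNAAGTG (bound by NK2 homeodomain proteins) and GGGCGG (the GC box).
Tbx18: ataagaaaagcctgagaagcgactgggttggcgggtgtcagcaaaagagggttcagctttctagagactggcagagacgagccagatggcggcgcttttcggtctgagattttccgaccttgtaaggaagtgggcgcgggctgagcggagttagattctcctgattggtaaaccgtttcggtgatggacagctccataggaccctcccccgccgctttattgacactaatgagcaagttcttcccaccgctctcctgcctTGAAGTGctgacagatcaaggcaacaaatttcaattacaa
Tbx20: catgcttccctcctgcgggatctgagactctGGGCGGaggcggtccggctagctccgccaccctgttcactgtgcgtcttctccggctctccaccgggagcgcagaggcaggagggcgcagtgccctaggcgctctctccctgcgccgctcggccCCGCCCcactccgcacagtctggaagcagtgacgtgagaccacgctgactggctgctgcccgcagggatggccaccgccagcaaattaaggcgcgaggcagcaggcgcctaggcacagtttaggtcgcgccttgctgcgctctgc
Tbx1: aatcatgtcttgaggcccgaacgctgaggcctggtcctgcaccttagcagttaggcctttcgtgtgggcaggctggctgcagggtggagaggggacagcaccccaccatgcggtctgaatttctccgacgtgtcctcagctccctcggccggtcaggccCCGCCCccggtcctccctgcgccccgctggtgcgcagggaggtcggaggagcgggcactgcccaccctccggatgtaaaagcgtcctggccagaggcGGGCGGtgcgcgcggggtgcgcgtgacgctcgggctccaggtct
Tbx4: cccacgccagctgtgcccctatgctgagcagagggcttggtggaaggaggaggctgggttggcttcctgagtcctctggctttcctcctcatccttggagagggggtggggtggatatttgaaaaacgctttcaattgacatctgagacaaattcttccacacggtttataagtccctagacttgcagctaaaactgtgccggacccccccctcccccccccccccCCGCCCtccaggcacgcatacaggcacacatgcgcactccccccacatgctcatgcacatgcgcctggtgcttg

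Covered and uncovered member windows overlapped in their CpG content. The Tbx20 window and the Tbx1 window shown both held 26 CpG dinucleotides. A peak covered the first in 3 libraries, and none was listed over the second in any library. Of 2079 promoter windows within 2 CpGs of that number, 87.3% had a region in all 4 libraries and 5.68% had no region. The other Tbx1 start, 16 CpGs, was not covered either, against 12.5% of windows of like CpG number. Tbx18, with 15 CpGs, was covered in all 4 libraries, as were 76.1% of its like. Tbx4 had 8 CpGs and no region, as did 56.5% of its like.

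Few of the searched motifs were present. The capitals in Tbx18 are 1 NK2 match that begins 10 bases after the start. Tbx20 and the Tbx1 window shown held 2 GC boxes each, and Tbx4 held 1. The outer Tbx1 start, not printed, held the single T-box core, beginning 76 bases before the start. TAATTA was absent from all 5 member windows. Among 21045 windows of protein-coding genes, AGGTGT was found in 12.8%, TAATTA in 4.47%, TNAAGTG in 10.9% and GGGCGG in 46.7%. A match is a run of letters and no measurement of binding.

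Most member regions were distal, 15 of 19 (78.9%), against 63.4% of all regions assigned to a gene, and most were not listed in every library. Of the 19, 5 had a peak in all 4 libraries (26.3%), against a background of 47.4% of all regions. Another 3 were listed in 3 libraries, 4 in 2 and 7 in 1 (36.8%, against 23.9% of all regions). A region was called a promoter region when it came within 1 kb of a listed start of its gene, or within 1 kb of either gene end for Tbx2, Tbx3 and Tbx15. There were 4 promoter regions, 3 inside genes and 12 outside. A promoter region in any library was found for 57.1% of the members, against 57.3% of 21631 protein-coding genes. Promoter regions of Tbx3 and Tbx18 were listed in all 4 libraries, which is 2 of 7 members (28.6%), against 49.6% of those genes. Of the 15 distal regions 3 were listed in all 4, against 30.7% of distal regions in the series. Promoter regions in the series reached 84.4%. The map of regions around each gene gives their positions.

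**Figure D1:**
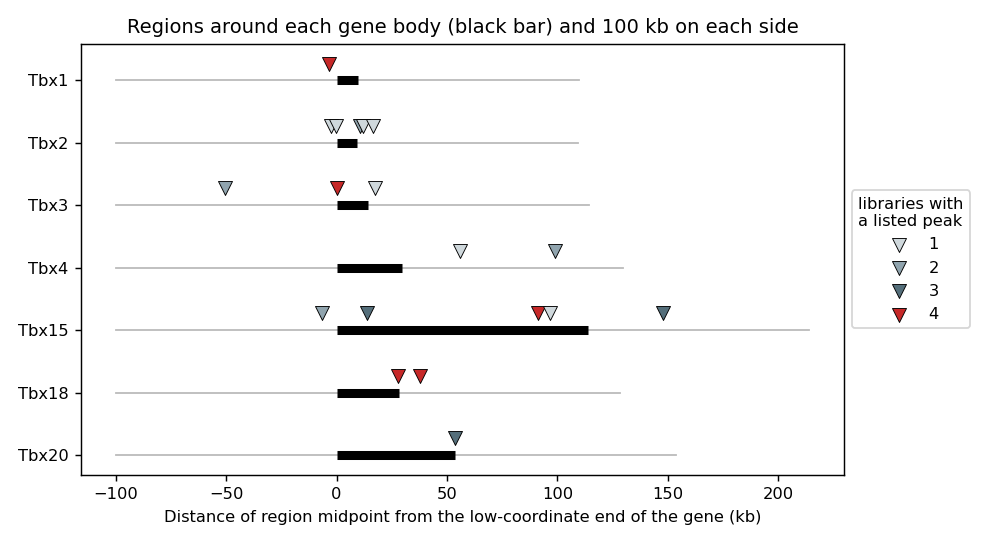
Position of the 19 regions around the 7 T-box genes, as distance in kb of the region midpoint from the low-coordinate end of the gene (x axis). Black bars are gene bodies, grey lines reach 100 kb beyond them, and triangle colour gives the number of libraries with a listed peak; the 5 regions in all 4 libraries lie at Tbx1, Tbx3, Tbx15 and Tbx18, and the 5 regions of Tbx2 lie around its short gene body.

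Regions are numbered within a gene from low to high coordinates. The score deposited for a peak was ranked within its own library, with tied scores given their mean rank. The percentile is that rank in percent of the list length, so 100 is the strongest peak. The plot of score percentiles shows all 44 member peaks.

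**Figure D2:**
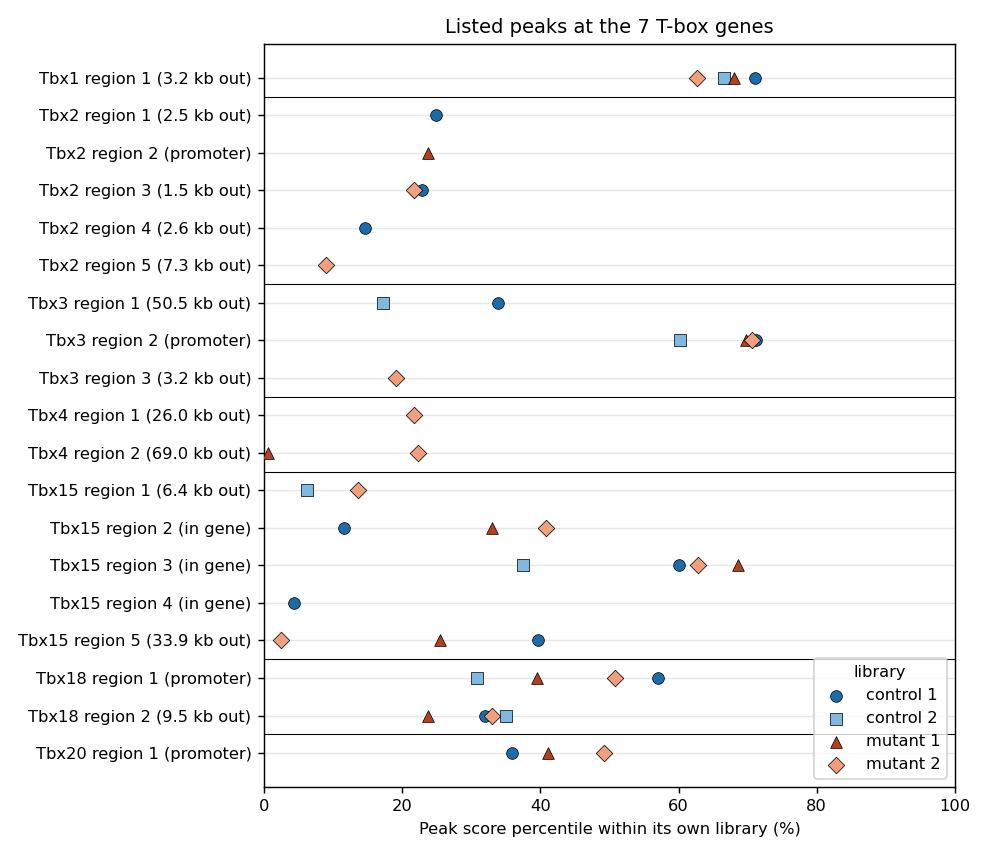
Percentile of the deposited score within each library (x axis, in %) for each of the 19 regions (rows), with 1 symbol per library that lists a peak and no symbol where none is listed. Tbx1 region 1 and Tbx3 region 2 reach 60.2 to 71.1 in all libraries, and no peak of Tbx2 exceeds 24.9.

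Tbx2, Tbx3 and Tbx4 belong with Tbx5 to the Tbx2 subfamily, whose genes lie in linked pairs. Tbx3 (chromosome 5, 119670534 to 119684724) encodes a repressor needed for limb, mammary gland and conduction system development. Its region 2 (chr5:119669981-119671574), 1594 bp wide, lay over the low-coordinate end of the gene. The percentiles there were 71.1 and 60.2 (controls) against 69.7 and 70.6 (mutants). Control 2 stood below the other 3 libraries, and the genotypes overlapped. The deposited enrichments were 6.76 and 5.79 (controls) against 5.93 and 6.39 (mutants). Summits of the 4 peaks lay within 74 bp of each other, 204 to 278 bp inside the gene end. The region also contained the listed start of Tbx3os1, an antisense RNA gene, and ATAC-seq does not tell which of the genes a shared promoter serves.

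The other regions of Tbx3 were weaker. Region 1 (chr5:119619545-119620484) lay 50.5 kb outside the gene, within Tbx3os1, and was the 1 control-only region of the 19. It had percentiles of 33.9 and 17.2 in the controls and no listed peak in either mutant. The summits of the controls were 58 bp apart. Control-only regions, with a peak in both controls and neither mutant, made up 1.07% of all regions, so 1 of 19 is a single case. In the mutants, 11 and 17 numbered peaks were missing from the lists in the gap that spans it, so a missing entry does not show a closed site. Region 3 (chr5:119687565-119688236), 3.18 kb outside the gene, was listed in mutant 2 alone, at a percentile of 19.1.

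Tbx2 (chromosome 11, 85832615 to 85841948), a close relative of Tbx3 that represses cell cycle inhibitors, had 5 regions and none shared by more than 2 libraries. Region 1 (chr11:85829821-85830453), with its midpoint inside the gene 2610027K06Rik, was listed in control 1 at a percentile of 24.9. Region 2 (chr11:85832117-85832952), over the low-coordinate gene end, was listed in mutant 1 at 23.7. Region 3 (chr11:85843106-85843763) was listed in control 1 at 22.8 and in mutant 2 at 21.7. These 3 regions stood at nearly the same rank in whichever library held them. Region 4 (chr11:85844077-85845052) was listed in control 1 at 14.7 and region 5 (chr11:85849038-85849461) in mutant 2 at 8.90. Control 2 listed none of the 5, and 20 of its numbered peaks were missing from the 414 kb gap around them.

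The regions of Tbx2 had low enrichment, and their density depended on single libraries, control 1 most, and on list length. They amounted to 14.3 regions per 100 kb of the territory nearest to the gene, at or above 96.9% of protein-coding genes. The density was 8.57 per 100 kb without control 1 (3 regions) and 5.71 at equal peak numbers (2 regions), at or above 92.1% and 87.5% of genes. It was 11.4 without mutant 1 and likewise without mutant 2 (4 regions each), and it was unchanged without control 2. Of 1769 genes with at least 5 regions, 55 (3.11%) had none in all 4 libraries, and Tbx2 was 1 of them. The deposited enrichment of its 6 peaks ran from 3.22 to 3.71, at enrichment percentiles of 0.860 to 2.21 within their lists. Among all 18350 peaks with score percentiles between 8.90 and 24.9, the range of the Tbx2 peaks, 3.92% had an enrichment percentile of 2.21 or less, and the median was 22.6. This comparison was chosen after the values were seen.

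**Figure D3:**
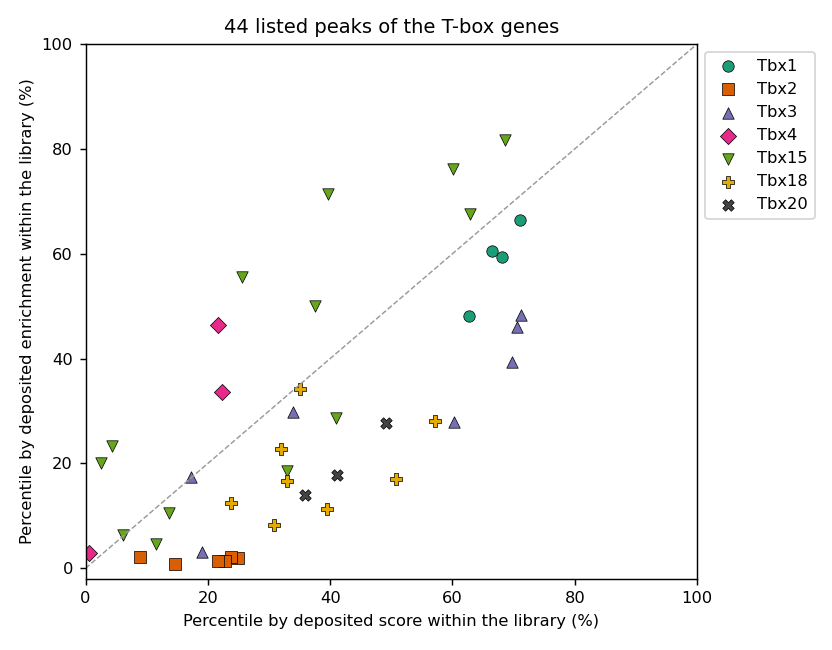
Percentile of each of the 44 member peaks by deposited score (x axis, in %) against its percentile by deposited enrichment (y axis, in %), both within its own library, with colour and symbol for the gene and a dashed line of equality. The 6 Tbx2 peaks lie along the bottom at 0.860 to 2.21, while 9 of the 13 Tbx15 peaks lie above the line.

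Tbx4 (chromosome 11, 85886367 to 85916097), a hindlimb and lung gene, lies 44.4 kb from Tbx2 and had the least listed chromatin of the pair. Region 1 (chr11:85941808-85942338), 25.98 kb outside the gene, was listed in mutant 2 at a percentile of 21.7. Region 2 (chr11:85984786-85985448), 69.0 kb outside and 73.0 kb from the next protein-coding gene, Brip1, was the 1 mutant-only region of the 19, against a background of 4.47% of all regions. Its percentiles were 0.624 in mutant 1 and 22.3 in mutant 2, so the call rests on a peak near the bottom of the mutant 1 list. In control 1 and control 2, 19 and 20 numbered peaks were missing from the gap that spans it. Tbx2 and Tbx4 together had 7 regions and 0 in all 4 libraries. Tbx3 and Tbx5, 112 kb apart, together had 5 regions and 2 in all 4 libraries.

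Tbx1, Tbx15, Tbx18 and Tbx20 belong to the Tbx1 subfamily. Tbx1 (chromosome 16, 18580979 to 18590671) had 1 region (chr16:18577380-18578156), 3.21 kb outside the gene and 11.1 kb downstream of its inner start. The percentiles were 71.1 and 66.5 (controls) against 68.1 and 62.7 (mutants). Mutant 1 lay between the controls, and mutant 2 was the lowest. The deposited enrichments were 8.03 and 7.52 (controls) against 7.07 and 6.51 (mutants). The summits fell within 26 bp of each other, against a median of 99.0 bp over 18475 regions with 1 peak in each library. The next protein-coding gene, Gnb1l, was 11.1 kb away.

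Tbx15 (chromosome 3, 99240348 to 99354260) takes part in skeletal development of the limb, skull and vertebrae, and it held the single region, of the 5 found in all 4 libraries, whose score percentiles separated the genotypes. Region 3 (chr3:99330819-99331867) lay inside the gene, 91.0 kb from its low-coordinate end. The percentiles were 60.1 and 37.5 (controls) against 68.6 and 62.9 (mutants). Both mutants stood above both controls, by 17.0 points in the means, and the margin between control 1 and mutant 2 was small beside the spread of the controls. Over all 18904 regions in all 4 libraries, 29.1% were higher in both mutants and 5.62% lower in both, so 1 of 5 is not apart from the background. The deposited enrichments were 8.99 and 6.89 (controls) against 9.21 and 7.85 (mutants). An exact permutation test of 2 against 2 libraries cannot give a p under 0.3333.

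The other Tbx15 regions varied more. Region 2 (chr3:99253528-99254422), also inside the gene, had percentiles of 11.5 in control 1, 33.0 in mutant 1 and 40.9 in mutant 2, with no entry in control 2. Region 5 (chr3:99387710-99388609), 33.9 kb outside, had 39.7 in control 1, 25.5 in mutant 1 and 2.49 in mutant 2. The order of the libraries was opposite in these regions. Region 1 (chr3:99233398-99234484) was listed in control 2 at 6.17 and in mutant 2 at 13.6, and region 4 (chr3:99336746-99337389) in control 1 at 4.28. In 9 of the 13 Tbx15 peaks the percentile by enrichment was above that by score.

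Tbx18 (chromosome 9, 87702800 to 87731260), which marks the sinus venosus and ureter mesenchyme and acts in the somites, was the member with the most regions in all 4 libraries. Region 1 (chr9:87729887-87731630), the widest of the 19 at 1744 bp, covered the promoter window printed above. The percentiles were 57.1 and 30.8 (controls) against 39.5 and 50.8 (mutants), so the mutants fell between the controls. The summits of control 1, mutant 1 and mutant 2 lay upstream of the start, at −103, −101 and −56 bp. That of control 2 lay downstream, at 132 bp. The range of these summits was 235 bp, above the upper quartile of 157 bp over regions with 1 peak in each library. Region 2 (chr9:87740362-87741110), 9.48 kb upstream of the start and within the RNA gene Gm36767, had percentiles of 32.0 and 35.1 (controls) against 23.7 and 33.0 (mutants). Its deposited enrichments were 5.45 and 6.09 (controls) against 4.67 and 4.97 (mutants). Its summits agreed within 17 bp.

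Tbx20 (chromosome 9, 24720812 to 24774303), best known for its part in heart development, had 1 region (chr9:24773749-24774761), over the start. The percentiles were 35.9 in control 1, 41.1 in mutant 1 and 49.2 in mutant 2, and control 2 had no entry. In that library 9 numbered peaks were missing from the 345 kb gap. The summits of control 1, mutant 1 and mutant 2 lay at −58, −28 and −80 bp from the start, inside the printed window.

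The number of peaks at these genes differed between the genotypes by less than the spread between libraries. The control lists held 13 and 7 member peaks, the mutant lists 10 and 14. Per 10000 listed peaks this was 4.30 and 3.05 for the controls (mean 3.67 ± 0.885, SD, n = 2), while the mutants had 3.42 and 4.40 (3.91 ± 0.690, SD, n = 2). The difference was 0.236 (exact two-sided permutation p = 0.667), and control 1 and mutant 2 were the high libraries of their groups. All 7 regions listed in a single library came from control 1 (3), mutant 1 (1) and mutant 2 (3). Across the members, 32 pairs of a region and a library lacked a peak, and in all 32 at least 1 numbered peak had been removed from the gap (median 11.5). The pairs were not separate gaps, since the 414 kb gap of control 2 was counted for every region of Tbx2 and Tbx4. Most numbered peaks of every library were unlisted, and the same count over all regions was not made. It therefore does not set the members apart.

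The sign of the median difference of the 5 regions in all 4 libraries depended on how peaks were ranked. Under every ranking used, the mutant mean was lower at Tbx1 region 1 and Tbx18 region 2 and higher at Tbx15 region 3. At Tbx3 region 2 and Tbx18 region 1 the sign changed with the ranking. Control 2 has the shortest list, and over all such regions its median percentile was 58.8, against 67.6 to 70.2 in the other libraries. By percentile over the whole list the median difference of the 5 regions (mutant mean minus control mean) was 1.21 points, against 3.29 points over all 18904. Ranked only among the regions found in all 4 libraries, the median difference was −7.48, against −0.0225 over all. Tbx1 region 1 and Tbx18 region 2 were then lower in both mutants than in both controls, against a background of 18.0%. Tbx15 region 3 was higher in both, against 17.6%. The Tbx1 region ranked at 53.8 and 59.4 (controls) against 50.7 and 38.0 (mutants). The Tbx18 region ranked at 7.76 and 23.2 (controls) against 4.98 and 7.12 (mutants), with mutant 2 just below control 1. Ranking by enrichment, and at equal peak numbers, also placed the Tbx1 and Tbx18 regions lower in both mutants, against backgrounds of 9.32% and 18.0%. Tbx15 region 3 stayed higher in both mutants at equal peak numbers, against 17.3%. By enrichment its separation was lost, since mutant 2 (67.5) ranked below control 1 (76.1).

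The median over the 5 regions within each library gave the opposite sign to the median of their differences on that scale. It was 36.9 and 25.6 (controls) against 50.7 and 38.0 (mutants), 13.1 points higher in the mutants (exact two-sided permutation p = 0.3333, the smallest this design allows). By whole-list percentile these medians were 60.1 and 37.5 (controls) against 68.1 and 62.7 (mutants) (difference 16.6, exact permutation p = 0.3333). The middle region differed between the libraries, being that of Tbx15 in the controls and that of Tbx1 in the mutants. With 5 regions, neither median describes a common change.

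**Figure D4:**
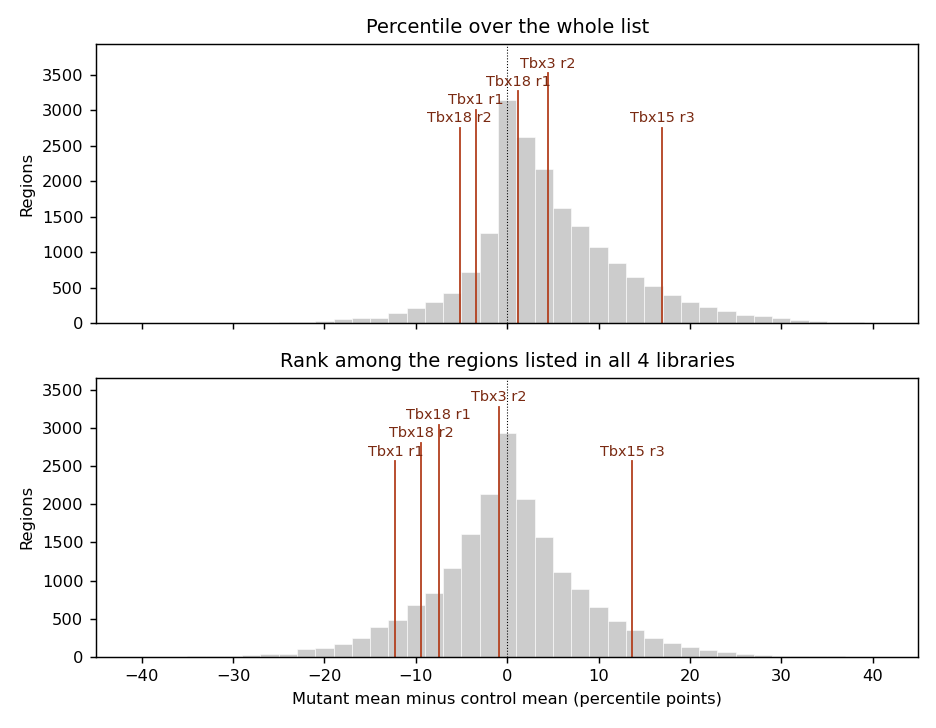
Number of regions (y axis) by mutant mean minus control mean in percentile points (x axis) for the 18904 regions listed in all 4 libraries, with peaks ranked over the whole list (top) or among those regions (bottom), where red lines mark the 5 T-box regions by gene and region number. In the top panel the regions of Tbx1 and Tbx18 lie at −5.17 to 1.21, in the bottom panel at −12.2 to −7.48, and Tbx15 region 3 lies at 17.0 and 13.7.

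The 10 other T-box genes found in the gene table had 17 regions, 6 of them in all 4 libraries (35.3%), with 1 control-only and 0 mutant-only regions. Over all regions these shares were 47.4%, 1.07% and 4.47%. Tbx6, Tbx10 and Tbx21 had none. Tbx19, a pituitary factor, had the most with 7, of which 2 were in all 4 libraries. The promoter of Mga, which joins a T-box to a Max-binding domain and is used in many cell types, was listed in all 4 libraries at percentiles of 83.9, 73.0, 74.3 and 78.9. Tbx22, the X-linked cleft palate gene, had 1 region, which lay next to an inner start. It was listed in control 2 at 25.4 and in mutant 2 at 29.7, so it did not follow genotype.

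Likeness of promoter percentiles over the 4 libraries was measured as Euclidean distance to 11 promoters of the other T-box and context genes that were listed in all 4. Nearest to Tbx3 was Eya1 (distance 5.63). Nearest to Tbx18 were Foxc1 (5.30) and Fgf10 (26.4). The Foxc1 promoter had percentiles of 60.1 and 31.9 (controls) against 43.1 and 52.9 (mutants), with control 2 lowest as at Tbx18. With 4 libraries, these distances describe ranks only.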

How the data were processed

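The authors deposited 1 peak list per library in the narrowPeak layout, without a header, on mm10 per the submitters' processing notes. No source used here names the aligner, peak caller or thresholds. The deposited score (column 5) was the whole part of 10 times the deposited −log10 p-value in nearly every row. The deposited enrichment was read as a fold ratio from the values and its column, relative to a background that no source used here states. These are the authors' values of single peaks. They were ranked within each list, and enrichments are printed per library as description only, with no comparison between lists.

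Overlapping peaks (1 bp or more) of the 4 libraries were joined into regions on all autosomes and chromosome X. Region midpoints were assigned to the nearest protein-coding gene body within 100 kb in a RefSeq table of GRCm38.p6, and starts came from a RefSeq promoter table with entries for 4 of the 7 members. Territory was counted on a 1 kb grid. Python 3.11.15 and pandas 2.3.3 were used, and the merging and assignment were tested on simulated data. Tests were exact permutations over libraries (smallest two-sided p 0.3333). Members and gene lists were chosen with earlier results of these data known. Regions named were every genotype-specific region, every region separating the genotypes, and the promoter and strongest distal regions, and the remaining member regions were added for completeness. Alternatives were the upper 50% of each list, 22959 peaks from each, 50% overlap, 50 and 500 kb, all gene types, other rankings, promoters within 2 kb, and each library left out. The Tbx2 density alternatives were chosen after seeing the data. A result for 1 gene of the context list is not reported here.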

Additional observations from a re-analysis of the deposited data

How the results depend on the processing

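Read depth is unknown and limits every call. The count of control-only and mutant-only member regions, 1 of each, fell to 0 and 0 in the upper 50% of each list, within 50 kb and with all gene types competing. It ran from 1 to 4 for each kind with 1 library left out. The genotype that lost a library was then judged on 1 library, so these classes were easier to enter. Shares over all regions under these settings are not given here. The counts therefore cannot be read against the 1.07% and 4.47% of the main setting. At equal peak numbers it was again 1 and 1, but the mutant-only region was Tbx15 region 2 in place of the Tbx4 region. The difference in member peaks per 10000 was −0.311 within 500 kb and −0.389 to 0.862 with 1 library left out, being below 0 without control 2 (−0.389) and without mutant 2 (−0.252); it was 0 at equal peak numbers. The median percentile difference, 1.21, became −9.73 at equal peak numbers, −4.00 by enrichment and −7.48 among regions in all 4 libraries. Over all such regions these medians were −0.0642, 2.62 and −0.0225. With 1 library left out it ran from −2.32 (without control 2, on 8 member regions instead of 5) to 9.92 (without control 1), with −0.749 without mutant 2. Over all such regions the medians were then 0.0183, 6.98 and 2.28, in that order. The cause was not tested. Merging at 50% overlap changed none of these values' direction, and promoters within 2 kb numbered 5 against 4. With the replicate numbers as a block, the difference of 0.236 had an exact sign-flip p of 1.0, and so had the median percentile difference of 1.21. The difference of the per-library medians, 16.6, had an exact sign-flip p of 0.5, the smallest possible. The numbers do not pair the samples in the labels, and same-numbered deviations correlated at −0.0316 over 18904 regions.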

Other observations

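A list of 25 genes known to act with or around T-box factors in craniofacial and heart mesenchyme had 80 regions, 29 of them in all 4 libraries (36.3%), with 2 control-only and 4 mutant-only regions. Among all regions of the series, 47.4% were in all 4 libraries, 1.07% were control-only and 4.47% mutant-only. A promoter region in all 4 libraries was found for 10 of the 25, against 2 of the 7 members, and the difference was not tested. Over all protein-coding genes the share was 49.6%. Eya1, a transcriptional co-activator, had the most regions with 9, and Fgf10, a growth factor gene of mesenchyme, had 8. Bmp4 had 6 regions, 1 of them in all 4 libraries. Ripply3, which encodes a co-repressor of Tbx1, had 0 regions, as did Foxc2 and Gbx2.

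Tbr1, a T-box gene of the forebrain, held the control-only region among the other T-box genes (chr2:61802740-61803320), with percentiles of 16.2 and 20.2 in the controls. A region inside Tbr1 (chr2:61811667-61812742) was listed in all 4 libraries, at 37.8 and 15.2 (controls) against 60.3 and 58.8 (mutants). Both mutants stood above both controls there. Of the 6 regions of other T-box genes in all 4 libraries, 1 was higher in both mutants (background 29.1%) and 2, at Mga and Tbx19, were lower in both (background 5.62%). These were chosen after their values were seen. The calls used percentiles over the whole list. Over all regions in all 4 libraries, the share lower in both mutants was 9.32% by enrichment. It was 18.0% at equal peak numbers, and 18.0% when ranked among those regions. Calls of the 6 regions under these other rankings are not given here.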
